A study of Mus musculus with 6 samples.

Results

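Histone genes were counted in mouse advanced embryonic stem cells (ASCs) with and without Bdh2. They were taken as every row of the count table whose gene name starts with Hist1 to Hist4 and whose biotype is protein coding, and the class of each was read from its name. This gave 67 of the 54715 genes in the table. They comprise 6 genes for the linker histone H1, 18 for H2A, 18 for H2B, 12 for H3 and 13 for H4. Of these, 54 lie in the Hist1 cluster on chromosome 13, 10 in Hist2, 2 in Hist3 and 1 in Hist4.

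RNA-Seq libraries came from 2 genotypes, WT and Bdh2-knockout ASCs, with 3 replicates each. ASCs are mouse embryonic stem cells kept between naive and primed pluripotency with activin A, BMP4, the GSK3 inhibitor CHIR99021 and LIF, and both groups were labelled with the same parents, a 129/sv mother and a father carrying the GOF/GFP reporter. The knockout cells were labelled Bdh2-/- and had been made with CRISPR/Cas9 and a pair of guides at the start codon. Single colonies were picked, and an ASC clone with a deletion in both alleles was chosen for the later work, so the knockout libraries may all come from 1 clone. Whether the replicates were separate cultures is not given in the sources used here, so p-values measure only the spread between these libraries.

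Histones package DNA. Pairs of H2A and H2B and a core of H3 and H4 form the nucleosome, and H1 binds the linker DNA where it enters and leaves. Most histone genes of the clusters are replication-dependent. They are transcribed in S phase, have no introns, and their mRNAs end in a conserved stem-loop, bound by SLBP, in place of a poly(A) tail. The labels name the TruSeq RNA kit, which as commonly used selects polyadenylated RNA. Whether it was used so here is not given in the sources used here, and the counts below describe the part of the histone mRNA that entered these libraries.

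The stem-loop is shown first because it is the sequence that sets these mRNAs apart. The letters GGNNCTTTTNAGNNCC, read on the transcript strand only, were found in an annotated transcript of 44 of the 67 histone genes (65.7%) and of 0.0813% of the other genes of GENCODE M21, the GRCm38 annotation used here. They occurred in 6 forms, in which capitals mark the stem and lower case the loop:
the form of 26 genes of the H1, H2A, H2B and H3 classes: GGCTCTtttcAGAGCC
the form of 7 H4 genes: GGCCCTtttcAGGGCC
the form of 6 genes of the H1, H2B and H3 classes: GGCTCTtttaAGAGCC
the form of Hist1h4i and Hist2h4: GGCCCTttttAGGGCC
the form of Hist1h4b and Hist1h4j: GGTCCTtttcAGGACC
the form of Hist2h2ac: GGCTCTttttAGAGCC
Of the 23 genes without the letters, 15 have annotated transcripts that run on for fewer than 16 bases after the stop codon, too short to hold them, so no match there says nothing of the mRNA. The H4 genes with a match carried stems that no gene of the other classes had. In 22 of the 44 genes an annotated transcript ran on for more than 100 bases past the stem-loop, by up to 4884 bases in Hist1h1d.

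The promoters of the somatic linker histone genes are shown because 4 of these 5 genes were lower in Bdh2-knockout ASCs and 1 did not pass the test. RefSeq promoters (GRCm38.p6) were matched for 61 of the 67 genes. Each line gives the 130 bases up to the start annotated by RefSeq, 5′ to 3′ on the strand of the gene, with AAACACA (the H1 box), CCAAT and TATAAA in capitals on either strand:
Hist1h1d (chr13:23554902-23555031, plus strand): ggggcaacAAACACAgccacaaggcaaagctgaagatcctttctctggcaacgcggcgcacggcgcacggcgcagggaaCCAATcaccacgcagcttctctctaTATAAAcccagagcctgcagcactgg
Hist1h1b (chr13:21780626-21780755, minus strand): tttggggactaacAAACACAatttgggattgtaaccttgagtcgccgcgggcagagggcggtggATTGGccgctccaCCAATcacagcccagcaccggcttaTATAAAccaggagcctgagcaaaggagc
Hist1h1e (chr13:23622559-23622688, minus strand): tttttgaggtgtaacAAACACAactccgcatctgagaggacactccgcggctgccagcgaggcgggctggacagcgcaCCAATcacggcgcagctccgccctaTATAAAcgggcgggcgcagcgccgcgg
Hist1h1a (chr13:23763538-23763667, plus strand): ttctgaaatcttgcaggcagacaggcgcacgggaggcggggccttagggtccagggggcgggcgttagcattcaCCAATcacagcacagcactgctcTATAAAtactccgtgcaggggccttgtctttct
Hist1h1c (chr13:23738677-23738806, plus strand): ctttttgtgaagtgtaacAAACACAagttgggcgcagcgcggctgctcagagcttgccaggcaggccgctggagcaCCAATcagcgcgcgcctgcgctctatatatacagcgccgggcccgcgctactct
The RefSeq start of Hist1h1d lies 1770 bases inside the gene as the count table gives it, while for the other 4 genes both starts are within 2 bases. All 5 held CCAAT. The H1 box letters were in 4 of them and not in Hist1h1a, which was lower, and they were present in Hist1h1c, which did not pass the test. TATAAA was in the 4 genes that were lower and not in Hist1h1c, which reads tatatata there, a form that was not searched for. The full window given next was also read for all 32 tested histone genes with a matched promoter. There 7 of the 18 that held TATAAA and 4 of the 14 that did not were lower. For the H1 box these counts were 4 of 6 and 7 of 26, and for CCAAT 10 of 27 and 1 of 5. Of all tested genes 20.8% were lower, and the differences between these sets were not tested. In letters the 3 motifs do not overlap one another.

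Over the whole window of 250 bases before and 50 after the start, on both strands, CCAAT was in every H1, H2A, H2B and H3 promoter matched and in 3 of 12 H4 promoters (25%), beside 37.4% of all 32851 promoters. The H1 box was in 5 of 6 H1 promoters and in 7.18% of all promoters. The octamer ATTTGCAT was in 7 of 17 H2A and 7 of 17 H2B promoters, in none of the other classes and in 1.74% of all promoters. Of the tested histone genes 1 of 7 with the octamer and 10 of 25 without it were lower, beside 20.8% of all tested genes. That difference was not tested. TATAAA was in 56.5% of the histone promoters and in 13.6% of all promoters. These matches describe letters and not bound sites.

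The libraries held 18927748 to 28333541 counts on genes, and at this depth 3 counts, the least taken as detectable, are 0.109 to 0.154 CPM, a limit that covers counting error only. CPM are counts per 1000000 counts of the library, here scaled with the TMM factors of edgeR. Bdh2 itself had 203, 193 and 209 counts in WT ASCs and 164, 136 and 129 in Bdh2-knockout ASCs (log2 fold change −0.79, SE 0.12, adjusted p = 2.46e-04, edgeR), so the targeted gene was lower in every library labelled as knockout, though its RNA was still present. Pluripotency markers were abundant in all 6 libraries, with a summed level of 8654 to 8887 CPM in WT ASCs and 9402 to 9533 CPM in Bdh2-knockout ASCs. In bulk RNA, fewer cells of a type and less RNA per cell cannot be told apart.

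Other cell-type markers moved with genotype or with single libraries. Of 27 tested adult hepatocyte markers (28 listed, none at 0 throughout), 19 were lower in Bdh2-knockout ASCs, and their summed level was 726, 459 and 90.02 CPM in WT replicates 1 to 3 and 83.9, 233 and 60.8 CPM in knockout replicates 1 to 3. WT replicates 1 and 2 thus stood apart, and knockout replicate 2 lay between them and the remaining libraries. The fit given below that leaves out WT replicates 1 and 2 keeps knockout replicate 2. All 13 primitive endoderm markers were higher in Bdh2-knockout ASCs, at 251 to 275 CPM in WT ASCs and 684 to 768 CPM in Bdh2-knockout ASCs. Of 11 tested fibroblast and feeder markers, 1 was higher and 2 were lower, and their summed level overlapped (46.8 to 53.2 and 47.1 to 53.6 CPM). The part of these cells in the histone values was not tested beyond the fits that leave out WT replicates 1 and 2 or carry a hepatocyte score, given beside the counts below.

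Histone counts were lower as a group in Bdh2-knockout ASCs. Summed over all 67 genes they were 67.0, 78.8 and 69.6 CPM in WT ASCs and 49.997, 45.3 and 47.7 CPM in Bdh2-knockout ASCs, or 71.8 ± 6.21 and 47.7 ± 2.34 CPM (mean ± SD, n = 3 each). The knockout mean was 66.4% of the WT mean and the groups did not overlap. These sums are small, at 0.00444% to 0.00804% of the counts of a library.

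By class, the summed level in Bdh2-knockout ASCs was lowest relative to WT in H1, and the groups overlapped only in H2A. H1 genes summed to 15.1, 18.2 and 15.5 CPM in WT ASCs and 8.70, 7.58 and 6.71 CPM in Bdh2-knockout ASCs, a mean of 47.1% of WT. H3 genes summed to 15.6 ± 0.402 CPM in WT ASCs and 9.51 ± 1.17 CPM in Bdh2-knockout ASCs, 60.8% of WT. H4 genes summed to 13.2 ± 1.00 and 9.49 ± 0.483 CPM, which is 71.8% of WT. H2B genes stood closer, at 15.04 ± 0.136 and 12.2 ± 0.704 CPM (81.0% of WT), and still did not overlap. H2A genes summed to 9.41, 15.7 and 9.73 CPM in WT ASCs and 9.21, 7.55 and 9.75 CPM in Bdh2-knockout ASCs. WT replicate 2 stood apart, and the other WT libraries lay within the range of the knockout libraries. Without Hist1h2ae, the H2A gene with the most counts, the class no longer overlapped, at 6.74, 11.8 and 6.44 CPM in WT ASCs and 5.04, 4.58 and 6.13 CPM in Bdh2-knockout ASCs.

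**Figure D1:**
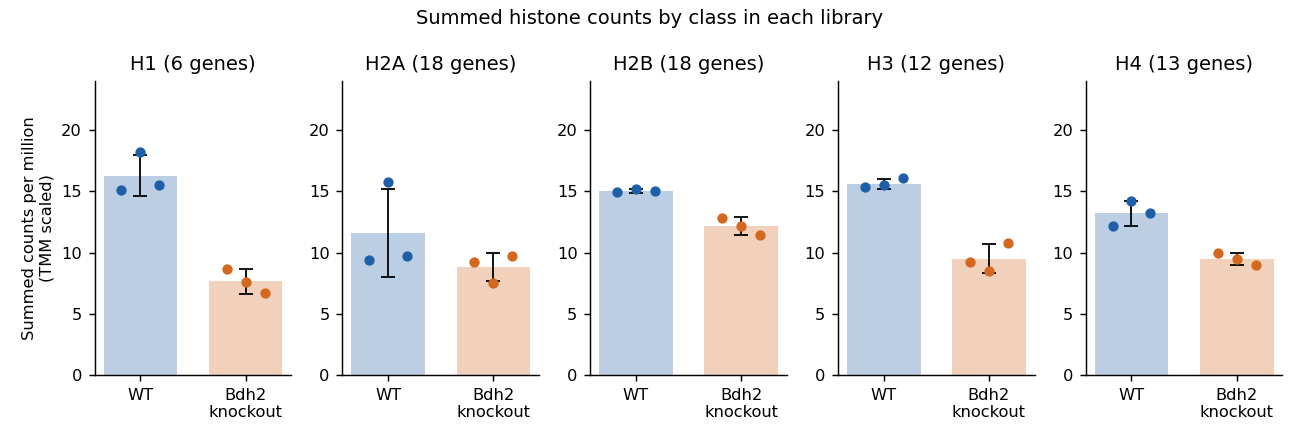
Summed TMM-scaled CPM of each histone class (y axis) in WT ASCs and Bdh2-knockout ASCs, with points for the 3 libraries of each genotype, bars for the mean and error bars for the SD. The H1 points lie between 15.1 and 18.2 in WT ASCs and between 6.71 and 8.70 in Bdh2-knockout ASCs, while the H2A points of the 2 genotypes overlap.

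Gene by gene, 36 of the 67 histone genes had enough counts to be tested, 25 more had counts but too few, and 6 had none. With edgeR's quasi-likelihood test, 11 of the 36 were lower in Bdh2-knockout ASCs at an adjusted p under 0.05, 1 was higher and 24 did not pass. Among all 16758 tested genes 20.8% were lower and 21% higher, beside 30.6% and 2.78% of the tested histone genes. The median log2 fold change of the 36 was −0.56, against −0.01 for all tested genes, and 33 of the 36 values were negative. In 16 of the 36 all knockout libraries were below all WT libraries, and in 1 all were above, where 26.1% and 26.3% of all tested genes were so divided.

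The test admitted genes with at least 3 libraries over 0.406 CPM, here of the unscaled library total, so a gene high only in WT ASCs could enter because it differed. Of the 36, 21 were over that level in all 6 libraries, 6 in all WT libraries but not in all knockout libraries, 2 the other way round, and 7 in a mixture. Without the filter, 61 histone genes were fitted, of which 14 were lower and 1 higher, beside 11.2% lower and 12.1% higher among all 31384 genes fitted. Of the 33 histone genes with a mean of at least 10 counts over all 6 libraries, 32 were tested and 10 were lower. The share of all genes at that cut was not computed, so this count cannot be set against it. Among genes with a mean of at least 50 counts, 9 histone genes were tested and 2 were lower (22.2%, beside 24.7% of all 12718 genes in that fit), with a median log2 fold change of −0.31, so the share of lower calls among these best-counted histone genes was not above that of all genes. Leaving out WT replicates 1 and 2 left 9 lower of 45 tested (20%, beside 11.4% of all genes in that fit), 8 of them shared with the 11. With the hepatocyte score as a covariate the same 11 were lower, beside 15.1% of all genes.

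**Figure D2:**
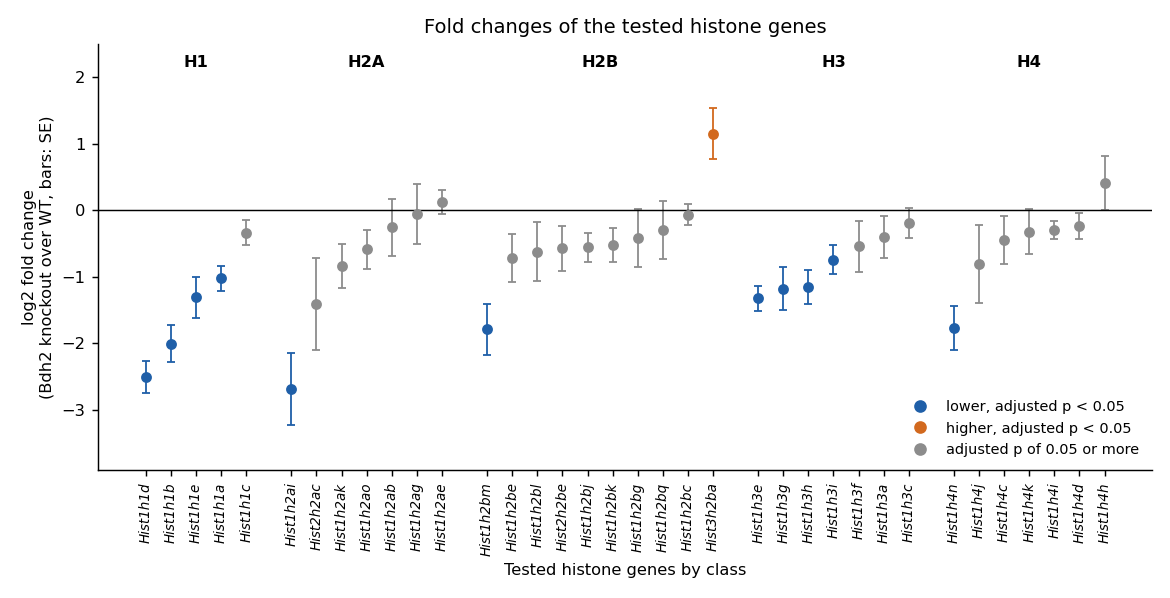
Log2 fold change (Bdh2-knockout over WT ASCs, y axis) of the 36 tested histone genes, grouped by class along the x axis, with points for the edgeR estimate and bars for its SE. Blue points are the 11 genes lower and the orange point the 1 gene higher at an adjusted p under 0.05; 33 of the 36 points are below 0.

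Of 5 tested linker histone genes 4 were lower (80%, beside 20.8% of all tested genes). Their median log2 fold change was −1.31. The proteins are related but distinct, at 53.0% to 87.3% identical residues between pairs of the 6 genes as translated from the annotated transcripts, and Hist1h1d and Hist1h1e are the closest pair. The share of their 50-base stretches found in other genes ran from 0% in Hist1h1a and Hist1h1b to 32.0% in Hist1h1e. Its median was 1.13%, beside 58.0% for the core histone genes, so as a class their counts can be told apart better. This does not hold for every gene, since Hist2h2be, a core histone gene, shares 0%.

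Hist1h1d (RefSeq H1f3, chr13:23553262-23560686, plus strand) had 62, 83 and 80 counts in WT ASCs and 21, 15 and 12 in Bdh2-knockout ASCs. Every knockout library lay far below every WT library. The level was 3.49 ± 0.537 CPM in WT ASCs and 0.604 ± 0.139 CPM in Bdh2-knockout ASCs (log2 fold change −2.51, SE 0.24, adjusted p = 5.33e-06). The listed length of this gene, 7425 bases, makes its level per length low, so that it ranked below the other 4 somatic H1 genes in FPKM (0.469 ± 0.0724 FPKM in WT ASCs).

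Hist1h1b (H1f5, chr13:21779883-21780625, minus strand) had 45, 61 and 63 counts in WT ASCs and 25, 12 and 14 in Bdh2-knockout ASCs. Its level fell from 2.61 ± 0.366 to 0.643 ± 0.239 CPM (log2 fold change −2.01, SE 0.28, adjusted p = 9.97e-05). Both genotypes were clearly apart, as for Hist1h1d. Hist1h1e (H1f4, chr13:23620629-23622558, minus strand) had 37, 29 and 51 counts in WT ASCs and 30, 14 and 13 in Bdh2-knockout ASCs. Knockout replicate 1 was level with WT replicate 2 in raw counts but not in CPM, where the groups did not overlap. The log2 fold change was −1.31 (SE 0.32, adjusted p = 0.00489), and 25.7% of the exon bases of this gene are covered by Hist1h2be and Gm11398, so part of its reads may be theirs.

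Hist1h1a (H1f1, chr13:23763666-23764406, plus strand) had the highest level per length of the class in WT ASCs, 4.53 ± 0.417 FPKM, and had 2.22 ± 0.240 FPKM in Bdh2-knockout ASCs, where Hist1h1c was higher at 2.55 ± 0.324 FPKM. Its counts were 72, 63 and 82 in WT ASCs and 51, 42 and 37 in Bdh2-knockout ASCs. The log2 fold change was −1.02 (SE 0.19, adjusted p = 7.98e-04) and the groups did not overlap.

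Hist1h1c (H1f2, chr13:23738808-23740367, plus strand) was the tested H1 gene that did not pass. It had 78, 131 and 117 counts in WT ASCs and 111, 122 and 83 in Bdh2-knockout ASCs, or 5.04 ± 1.29 and 3.98 ± 0.506 CPM. The groups overlapped and the log2 fold change was −0.33 (SE 0.18, adjusted p = 0.157). The other 5 H1 genes together summed to 11.2 ± 0.424 CPM in WT ASCs and 3.68 ± 0.866 CPM in Bdh2-knockout ASCs, 32.7% of WT.

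Levels of the other H1 genes were also set against Hist1h1c within each library, which needs no scaling between libraries. Hist1h1c was taken because of that result, and with 3 against 3 libraries no such ratio can pass the threshold. Counts of Hist1h1d were 0.795, 0.634 and 0.684 of those of Hist1h1c in WT ASCs and 0.189, 0.123 and 0.145 in Bdh2-knockout ASCs. For Hist1h1b the ratios were 0.577, 0.466 and 0.538 in WT ASCs and 0.225, 0.0984 and 0.169 in Bdh2-knockout ASCs. Neither ratio overlapped between the genotypes, and each had an exact permutation p of 0.1 (two-sided), the smallest that 3 against 3 can give, or 0.133 adjusted over the 4 ratios computed. The ratio of Hist1h1a to Hist1h1c was 0.702 ± 0.221 in WT ASCs and 0.417 ± 0.0629 in Bdh2-knockout ASCs without overlap (exact p = 0.1, adjusted 0.133). That of Hist1h1e was 0.377 ± 0.136 and 0.181 ± 0.0805 and overlapped (exact p = 0.2, adjusted 0.2).

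**Figure D3:**
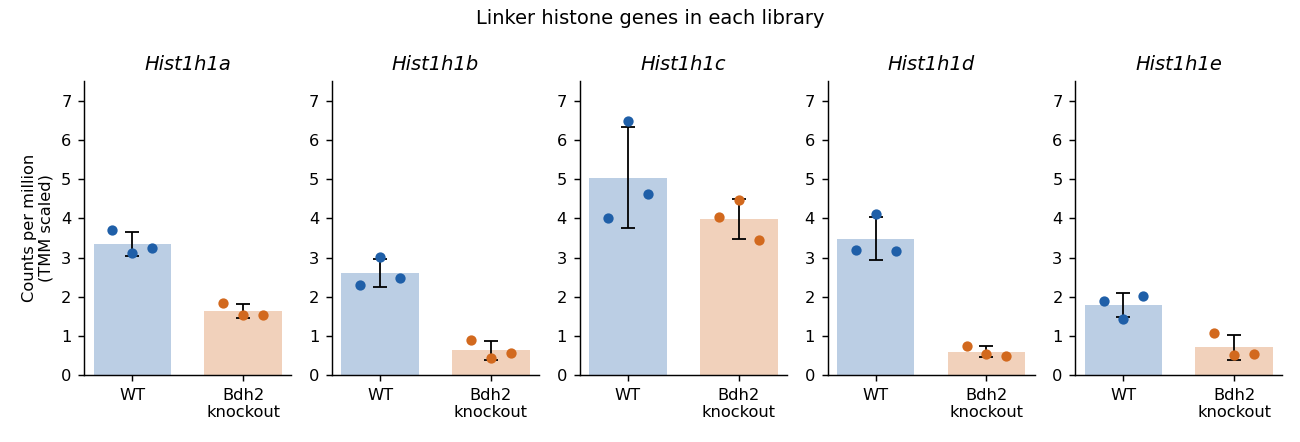
TMM-scaled CPM (y axis) of the 5 tested linker histone genes in WT ASCs and Bdh2-knockout ASCs, with points for the 3 libraries of each genotype, bars for the mean and error bars for the SD. Hist1h1d falls from a mean of 3.49 to 0.604, and Hist1h1c is the panel in which the genotypes overlap.

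The testis-type Hist1h1t, the sixth H1 gene, had 7 counts in all, too few to test. The other histone genes known from the male germ line were as low, with 3 counts for Hist1h2ba and 1 for Hist1h2aa over the 6 libraries. Their levels were under the floor of 3 counts per library, at which no difference can be seen.

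Of 7 tested H3 genes 4 were lower and none higher (57.1% lower, beside 20.8% of all tested genes). Their median log2 fold change was −0.74. The 12 H3 genes encode only 2 proteins, 1 from 8 genes and 1 from 4 (Hist1h3a, Hist1h3g, Hist1h3h and Hist1h3i). Of the 8 genes of the first protein 3 were tested and 1 was lower. All 4 genes of the second protein were tested, and 3 were lower. Its 4 genes summed to 7.46, 7.87 and 7.95 CPM in WT ASCs and 4.39, 4.32 and 4.04 CPM in Bdh2-knockout ASCs, 54.8% of WT. The 8 genes of the first protein summed to 7.88 ± 0.263 and 5.26 ± 1.33 CPM, 66.8% of WT. Both sums were apart between the genotypes, and the difference between the 2 proteins was not tested. Hist1h3h shares 93.9% of its 50-base stretches with other genes, genes of both proteins among them, so reads could be split between the sums.

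Hist1h3e, a gene of the first protein, had 63, 64 and 75 counts in WT ASCs and 31, 36 and 31 in Bdh2-knockout ASCs, the tightest separation of the class. Its level went from 3.12 ± 0.143 to 1.24 ± 0.106 CPM (log2 fold change −1.32, SE 0.19, adjusted p = 1.51e-04). Hist1h3c, which encodes the same protein and had 5.50 ± 0.644 FPKM in WT ASCs, did not pass. Its counts of 76, 63 and 85 in WT ASCs and 80, 56 and 100 in Bdh2-knockout ASCs overlapped (log2 fold change −0.19, SE 0.23, adjusted p = 0.518). Genes for 1 and the same protein thus differed in whether they passed.

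Hist1h3h was the H3 gene with the highest WT level per length (5.74 ± 0.778 FPKM in WT ASCs, 2.60 ± 0.803 FPKM in Bdh2-knockout ASCs), and had 41, 55 and 57 counts in WT ASCs and 21, 28 and 34 in Bdh2-knockout ASCs. The groups were apart, with a log2 fold change of −1.15 (SE 0.25, adjusted p = 0.00280). Hist1h3g, with 38, 23 and 54 counts in WT ASCs and 30, 15 and 16 in Bdh2-knockout ASCs, had a log2 fold change of −1.18 (SE 0.32, adjusted p = 0.0106). Hist1h3i had 36, 46 and 55 counts in WT ASCs and 38, 29 and 32 in Bdh2-knockout ASCs. The groups were apart in CPM but not in raw counts. Its log2 fold change of −0.74 (SE 0.22, adjusted p = 0.0158) was the smallest of the called genes, and it was no longer called with DESeq2 (adjusted p = 0.0716), without WT replicate 2 or knockout replicate 2, or without both WT replicates 1 and 2.

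Among H2A genes 1 of 7 tested was lower and none higher (14.3% lower, under the 20.8% of all tested genes), and the median log2 fold change was −0.59. The most abundant per length as a mean over all 6 libraries, Hist1h2ao, had 43, 93 and 59 counts in WT ASCs and 43, 50 and 65 in Bdh2-knockout ASCs. WT replicate 2 stood above the rest, and the log2 fold change of −0.59 (SE 0.29) did not pass (adjusted p = 0.124), though it did without the filter on low counts (adjusted p = 0.0353). Hist1h2ae had 52, 79 and 83 counts in WT ASCs and 115, 81 and 87 in Bdh2-knockout ASCs, overlapping, with a log2 fold change of 0.12 (SE 0.19, adjusted p = 0.620). Hist1h2ag, next in that mean, had 14, 34 and 11 counts in WT ASCs and 30, 14 and 26 in Bdh2-knockout ASCs with wide overlap (log2 fold change −0.06, SE 0.45, adjusted p = 0.929).

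The H2A gene that was lower, Hist1h2ai, is named after its values were seen, since its mean count is under 10. It had 11, 23 and 15 counts in WT ASCs and 2, 6 and 1 in Bdh2-knockout ASCs, so that 2 of the 3 knockout libraries were under the floor. Its log2 fold change was −2.69 (SE 0.55, adjusted p = 0.00166). All its knockout libraries were under the filter level of 0.406 CPM, so it entered the test only through the WT libraries, where it was high. It was not called without WT replicates 1 and 2. Hist1h2ai encodes the same H2A protein as 8 other genes, Hist1h2ao, Hist1h2ae and Hist1h2ag among them, and this protein's 9 genes together summed to 9.46 ± 3.53 CPM in WT ASCs and 7.54 ± 1.02 CPM in Bdh2-knockout ASCs, which overlapped.

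Of 10 tested H2B genes 1 was lower and 1 higher (10% each, beside 20.8% and 21% of all tested genes), and each of these entered the test only through the genotype in which it was high. The median of the log2 fold changes was −0.54. Hist1h2bc, with the most counts of all the histone genes, overlapped between the genotypes, at 127, 92 and 129 counts in WT ASCs and 155, 148 and 105 in Bdh2-knockout ASCs (log2 fold change −0.06, SE 0.16, adjusted p = 0.773). The next in level per length as a mean over all libraries, Hist1h2bj and Hist1h2bk, were apart between the genotypes in CPM and yet did not pass. Hist1h2bj had a log2 fold change of −0.55 (SE 0.22, adjusted p = 0.0549), and Hist1h2bk one of −0.53 (SE 0.26, adjusted p = 0.117). With library totals in place of TMM factors Hist1h2bj passed (adjusted p = 0.0370, edgeR), in a fit where the median of all genes was −0.07. Hist1h2bm had 13, 20 and 25 counts in WT ASCs and 10, 5 and 5 in Bdh2-knockout ASCs, and was lower (log2 fold change −1.79, SE 0.39, adjusted p = 0.00241). Like Hist1h2ai, it was over the filter level in the WT libraries only.

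Hist3h2ba, from the Hist3 cluster on chromosome 11, was the 1 histone gene that was higher. It had 4, 7 and 7 counts in WT ASCs and 18, 14 and 17 in Bdh2-knockout ASCs, with no overlap, and a level of 0.276 ± 0.0703 and 0.625 ± 0.101 CPM. The log2 fold change was 1.15 (SE 0.38, adjusted p = 0.0281). All its WT libraries were under the filter level of 0.406 CPM, so it entered the test only through the knockout libraries. The call was lost with DESeq2 (adjusted p = 0.152), with the replicate block (adjusted p = 0.0521), with the hepatocyte score, without both WT replicates 1 and 2, and when any of WT replicates 1 and 3 and knockout replicates 1 and 3 was left out, while the direction held in each of these fits.

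The 13 H4 genes all encode 1 protein, and 1 of 7 tested was lower (14.3%, under the 20.8% of all tested genes). The median log2 fold change was −0.32. Hist1h4i, the highest per length (6.94 ± 0.118 FPKM in WT ASCs, 5.66 ± 0.459 FPKM in Bdh2-knockout ASCs), had 99, 100 and 129 counts in WT ASCs and 124, 106 and 95 in Bdh2-knockout ASCs. In CPM the knockout libraries were all below the WT libraries, but the log2 fold change of −0.29 (SE 0.13) did not pass (adjusted p = 0.0948). With library totals Hist1h4i passed (adjusted p = 0.0486, edgeR). Hist1h4k overlapped (log2 fold change −0.32, SE 0.34, adjusted p = 0.466).

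Hist1h4n (chr13:21831767-21832196, minus strand) had 33, 46 and 32 counts in WT ASCs and 19, 13 and 8 in Bdh2-knockout ASCs. Its level of 1.75 ± 0.507 CPM in WT ASCs went down to 0.4995 ± 0.179 CPM in Bdh2-knockout ASCs (log2 fold change −1.77, SE 0.33, adjusted p = 9.70e-04). In WT ASCs it was the second gene in level per length of its class, at 4.06 ± 1.18 FPKM. In Bdh2-knockout ASCs it had 1.16 ± 0.416 FPKM, below Hist1h4k at 1.83 ± 0.148 FPKM. Of its 50-base stretches 85.6% also occur in other genes, so reads could be split between copies, and it was not called without WT replicates 1 and 2.

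All 11 genes that were lower lie in the Hist1 cluster, where 33 of 54 genes were tested (33.3% lower, beside 20.8% of all tested genes). Along the cluster they did not form 1 block: a gap of 1487373 bases between Hist1h2bj and Hist1h4h splits the cluster, and 6 of the 16 genes tested before it (37.5%) and 5 of the 17 tested after it (29.4%) were lower. The cluster spans chr13:21715763-23934851 and also holds 7 other tested genes, of which 1 was higher and 2 lower (median log2 fold change −0.32). Of the 653 other tested genes of chromosome 13, 123 were higher and 136 lower (median −0.04), close to the share of all genes.

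**Figure D4:**
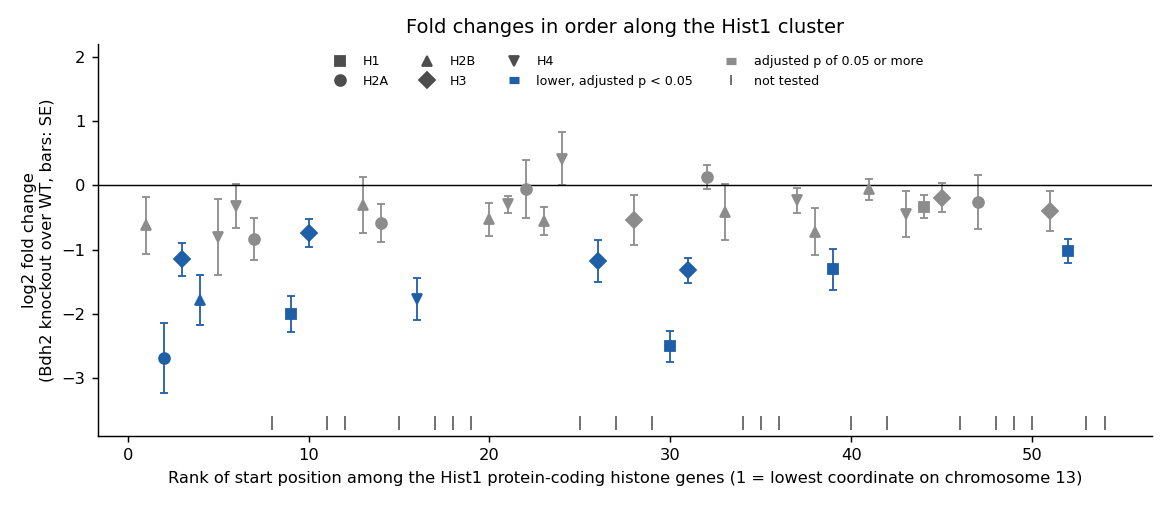
Log2 fold change (Bdh2-knockout over WT ASCs, y axis, bars are the SE) of the Hist1 genes against their rank by start position on chromosome 13 (x axis), with a marker shape for each class, blue for the 11 genes lower at an adjusted p under 0.05 and ticks for the genes not tested. The blue points are spread over the cluster on both sides of its widest gap, with genes that did not pass between them.

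Outside Hist1 few genes could be measured. In Hist2, 6 of 10 genes had no count at all (Hist2h2aa1, Hist2h2aa2, Hist2h2ab, Hist2h2bb, Hist2h3b and Hist2h3c1, named after their values were seen). Their transcripts share 64.8% to 100% of their 50-base stretches with other genes and 68.2% to 100% of their exon bases are covered by another annotated gene, so a count of 0 does not show that they were silent. Hist2h2ac had 13, 12 and 6 counts in WT ASCs and 1, 2 and 11 in Bdh2-knockout ASCs, overlapping through knockout replicate 3 (log2 fold change −1.41, SE 0.69, adjusted p = 0.117). Without that library its log2 fold change was −3.03 and passed, and it was also called with limma-voom (adjusted p = 0.0494) and without the filter (adjusted p = 0.0476). Its divergent partner Hist2h2be had 15, 18 and 16 counts in WT ASCs and 12, 12 and 16 in Bdh2-knockout ASCs (log2 fold change −0.57, SE 0.34, adjusted p = 0.190). Hist4h4, the gene of Hist4, had 36 counts in all and was not tested.

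H2A and H2B genes often stand head to head with a shared promoter region. Such pairs, with starts at most 1000 bases apart, numbered 13, of which 12 joined an H2A and an H2B gene, 175 to 305 bases apart. Both partners were tested in 5. In none of these did both partners pass, where 20.8% of all tested genes were lower and 21% higher. So few pairs cannot show whether partners change together. Hist1h2ai, which was lower, faced Hist1h2bl across 278 bases, a gene named only as its partner and after the values were seen. Hist1h2bl had 10, 10 and 9 counts in WT ASCs and 7, 12 and 4 in Bdh2-knockout ASCs. It did not pass (log2 fold change −0.62, SE 0.44, adjusted p = 0.281).

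Near-identical copies limit what single genes can show. Of the 67 genes, 34 share at least 50% of their 50-base stretches with other genes, among them Hist1h3h (93.9%), Hist1h2ai (90.1%), Hist1h3i (87.6%) and Hist1h3e (73.4%), and how the counting treated reads with several matches is not given in the sources used here. Among these 34, 16 were tested, 6 were lower (37.5%) and the median log2 fold change was −0.68. Among the 33 genes that share less, 20 were tested, 5 were lower and 1 higher (25% and 5%, median −0.43), and 25% is close to the 20.8% of all tested genes that were lower. The values of the first set are best read as uncertain for the single gene. The direction was negative in both sets.

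Genes that were lower occurred both with and without the letters of the stem-loop. Of 12 tested genes without them in an annotated transcript, 6 were lower (50%, beside 20.8% of all tested genes, median log2 fold change −0.79). In 7 of these 12, 4 of them lower, the annotated transcripts end at the stop codon, so the letters could not be found whether or not the mRNA has them. Of 13 with more than 100 transcribed bases after the stem-loop, 3 were lower (23.1%, median −0.45), and of 11 with at most 100 such bases, 2 were lower (18.2%, median −0.53), both near the share of all genes. The difference between these sets was not tested.

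Replication-independent histone genes, which are transcribed outside S phase as well and whose mRNAs carry poly(A) tails, were called in both directions. Of 12 tested, 2 were higher and 5 lower (16.7% and 41.7%, beside 21% and 20.8% of all tested genes), and the median log2 fold change was −0.19. H3f3b, which encodes the replacement histone H3.3, had 8296, 9371 and 12226 counts in WT ASCs and 20739, 19299 and 17492 in Bdh2-knockout ASCs, and was higher (log2 fold change 0.67, SE 0.05, adjusted p = 1.12e-06). H2afx, the variant phosphorylated at DNA breaks, was higher as well, by 0.27 (SE 0.06, adjusted p = 0.00382), though not without WT replicates 1 and 2 (0.12). Among called genes the largest decreases were in H2afj (−0.42), the macroH2A gene H2afy2 (−0.34) and the H2A.Z gene H2afv (−0.28). The linker variants H1f0 and H1fx, named after their values were seen, had log2 fold changes of −0.12 (adjusted p = 0.135) and −0.26 (adjusted p = 0.0220). Summed over the list the level was 2540 to 2586 CPM in WT ASCs and 2689 to 2700 CPM in Bdh2-knockout ASCs. This higher sum rested on H3f3b, and without it the list summed to 2076 to 2159 CPM in WT ASCs and 1937 to 1985 CPM in Bdh2-knockout ASCs, lower in every knockout library.

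Genes that make histone mRNA were not lower as a group. Of 31 tested genes for its transcription and 3′ end processing, 10 were higher, 2 lower and 19 did not pass (median log2 fold change 0.08). These shares were 32.3% higher and 6.45% lower, beside 21% and 20.8% of all tested genes. Slbp, whose product binds the stem-loop, had 1949, 2037 and 2403 counts in WT ASCs and 3261, 3012 and 2899 in Bdh2-knockout ASCs, and was higher (log2 fold change 0.24, SE 0.05, adjusted p = 0.00319). Npat, the coactivator of the histone clusters, had a log2 fold change of 0.13 (SE 0.06, adjusted p = 0.121), and Casp8ap2, a further component of the histone locus body, one of 0.02 (SE 0.05, adjusted p = 0.825). The largest increases were in Srrt (0.71, SE 0.06) and the cap-binding subunit gene Ncbp2 (0.49, SE 0.05), followed by the transcription factor Yy1 (0.32, SE 0.05). The 2 genes that were lower were Lsm11, of the U7 snRNP that cuts histone pre-mRNA (−0.24, SE 0.07, adjusted p = 0.0151), and Hinfp, the activator of H4 genes (−0.19, SE 0.05, adjusted p = 0.0111). Neither was called with DESeq2, without knockout replicate 2 or without WT replicates 1 and 2, and Lsm11 was also not called without knockout replicate 3 or with the hepatocyte score.

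Of 22 tested genes for histone mRNA decay, 4 were higher and 5 lower (median log2 fold change 0.01), shares of 18.2% and 22.7% that are near the 21% and 20.8% of all tested genes. The 5 lower became 2 without knockout replicate 1 or 3, and 3 without WT replicate 3, without knockout replicate 2, with DESeq2, without the filter, with the replicate block or without WT replicates 1 and 2. Lower calls over all genes went from 3478 to 2707, 2685 and 2624 without knockout replicates 1, 2 and 3. They were 2497 with DESeq2, 3217 with the replicate block, 3519 without the filter and 3644 without WT replicate 3. Exosc10 (0.40), Dcp1a (0.30) and Lsm6 (0.27) rose, and Lsm5 (−0.35), the exonuclease gene Xrn1 (−0.20) and the uridylyltransferase gene Tut4 (−0.19) fell. Histone chaperones, which carry and deposit histones, were higher in 12 of 29 tested and lower in 2 (41.4% and 6.90%, beside 21% and 20.8% of all tested genes, median 0.12). Ubn1 (0.48) and Hira (0.39), partners in H3.3 deposition, and Supt6 (0.37) were the largest increases. Hat1, which acetylates new H4, was lower (−0.38, SE 0.05, adjusted p = 1.00e-04), as was the chaperone gene Asf1b (−0.17, adjusted p = 0.0378), which lost its call under most other fits.

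S phase genes are the natural comparison for replication-dependent histones, and they were not lower as a list. Of 45 tested, 14 were higher, 7 lower and 24 did not pass (median log2 fold change 0.06). The shares were 31.1% higher and 15.6% lower, beside 21% and 20.8% of all tested genes. The 7 lower became 3 without WT replicate 1, without knockout replicate 1 or with the hepatocyte score, 4 without knockout replicate 2 or 3, and 2 without WT replicates 1 and 2, and the 14 higher became 9 in that last fit and with library totals. Lower calls over all genes fell as well, from 3478 to 2900 without WT replicate 1, 2707 without knockout replicate 1 and 2537 with the hepatocyte score. Without knockout replicates 2 and 3 they were 2685 and 2624. The summed level of the S phase genes was 6827 to 7205 CPM in WT ASCs and 7505 to 7611 CPM in Bdh2-knockout ASCs. The nucleotide pool gene Dut (0.44, SE 0.06), the helicase subunit gene Mcm4 (0.40, SE 0.06) and the flap endonuclease gene Fen1 (0.34, SE 0.09) were the largest increases. E2f1 (−0.38, SE 0.05), E2f2 (−0.30, SE 0.08) and the polymerase subunit gene Pole2 (−0.23, SE 0.07) were the largest decreases. None of these 5 lists had a median as low as that of the clustered histone genes.

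**Figure D5:**
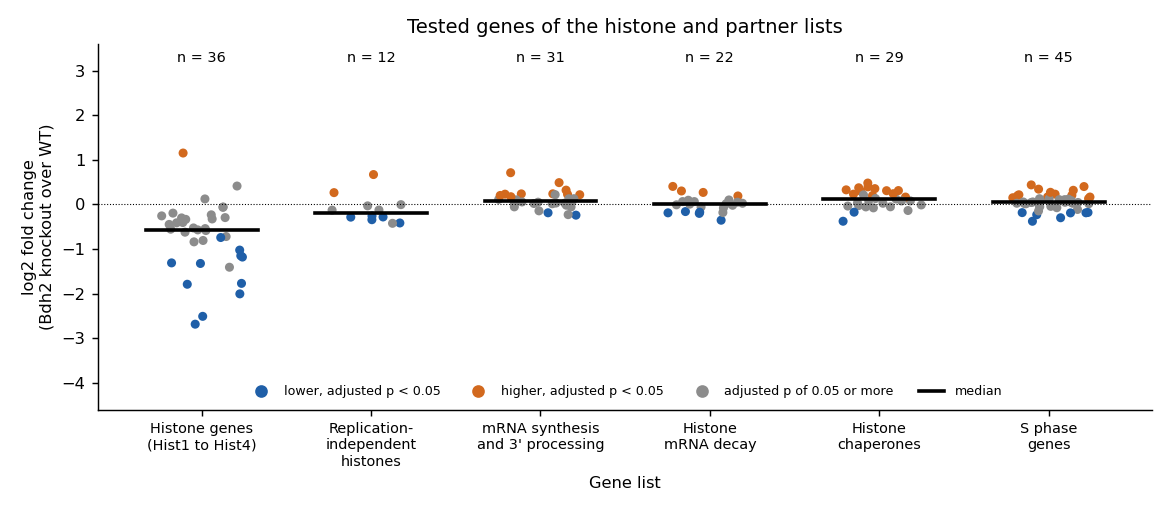
Log2 fold change (Bdh2-knockout over WT ASCs, y axis) of the tested genes of the clustered histone genes and of 5 other lists (x axis), with 1 point a gene, blue and orange for genes lower and higher at an adjusted p under 0.05 and a black line for the median. The medians are −0.56 for the histone genes and between −0.19 and 0.12 for the other lists.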

How the data were processed

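RNA-Seq was done on 3 WT and 3 Bdh2-knockout ASC samples. The authors mapped reads to GRCm38 with Hisat2 (2.0.5, per the labels) and used FeatureCounts for counting. They deposited a single count table, not normalized, with a length and position for each gene. The annotation release, the strand setting and the handling of reads with several matches are not given in the sources used here, and the kit named in the labels does not mark strand.

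Counts were tested in R 4.3.3 with edgeR 4.0.16 (TMM, filterByExpr, glmQLFit and glmQLFTest, genotype only, Benjamini-Hochberg over 16758 genes, threshold 0.05). FPKM was computed here from the TMM-scaled counts and listed lengths. The depth, 18927748 to 28333541 counts, sets the floor of 3 counts at 0.109 to 0.154 TMM-scaled CPM. For ratios of 3 against 3 libraries an exact permutation test (two-sided) was used. The functions were tested on simulated data. Shared 50-base stretches, stem-loops, proteins and exon overlaps came from GENCODE M21, in which all 67 genes were found, and promoters from RefSeq (GRCm38.p6), matched by older symbols. Sums over genes and lists were given no test. Python 3.11.15, pandas 2.3.3, scipy 1.17.1 and matplotlib 3.10.9 were used.

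The genes, the lists and the tests were chosen with earlier results of these data known. Named were Bdh2, in each class the 3 genes highest in mean FPKM and up to 3 largest increases and decreases among called genes with a mean of at least 10 counts, every tested gene of Hist2 to Hist4, Hist1h4n, 3 testis histone genes, and from each partner list up to 3 called genes each way with Slbp, Npat and Casp8ap2. Alternatives were DESeq2 1.42.0, limma-voom (limma 3.58.1), median-of-ratios factors, library totals, no filter, a mean of at least 50 counts, the replicate number as a block, a hepatocyte score, each library left out, and sums without their highest gene. The fit without WT replicates 1 and 2 was chosen after seeing the data.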

Additional observations from a re-analysis of the deposited data

How the results depend on the processing

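The 11 histone genes lower in Bdh2-knockout ASCs numbered 9 to 14 under every other fit except that limited to genes with a mean of at least 50 counts, which tested 9 histone genes and called 2. The median log2 fold change lay between −0.70 and −0.31 over all fits. The 1 gene higher, Hist3h2ba with a mean of 11.2 counts, was not in the fit limited to a mean of at least 50 counts. It was not called with DESeq2, the replicate block or the hepatocyte score. With single libraries left out the genes higher ranged from 0 to 1 and the genes lower from 10 to 13. The cause was not tested. Scaling to library totals moved the median of all genes to −0.07 and the calls over all genes to 2731 higher and 4451 lower, from 3518 and 3478, and called 14 histone genes lower. Log2 ratios of class sums without the highest gene moved to −1.61 (H1), −0.46 (H2B) and −0.91 (H3), and that of H2A went from −0.40 to −0.67, where the groups no longer overlapped.

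Same-numbered libraries deviated together with correlations of −0.15, 0.10 and 0.24, so the numbers were not taken to pair the libraries. With the replicate block the 11 lower histone genes stayed called, Hist3h2ba did not, and 3 decay genes and 1 chaperone were lower. In the partner lists, lower genes of synthesis and processing (2) became 0 with DESeq2, 4 with library totals and 0 to 3 with 1 library left out. Lower decay genes (5) became 3 with DESeq2, without the filter and without WT replicates 1 and 2, and 2 to 5 with 1 library left out. Lower chaperones (2) became 1 with DESeq2 and without the filter, and 1 to 2 with 1 library left out. S phase genes higher (14) became 9 with library totals, and those lower (7) 3 with the hepatocyte score and 3 to 8 with 1 library left out. Over all genes the lower calls went from 3478 to 2497 with DESeq2, 2537 with the hepatocyte score and 2624 to 3644 with 1 library left out. Without WT replicates 1 and 2, a fit in which the 1 WT library is assumed to vary as the knockout libraries do, the counts were 1 replication-independent histone higher, 6 synthesis genes higher and 1 lower, 9 S phase genes higher and 2 lower. Depth limits the 25 histone genes with counts too low to test.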
